A study of Homo sapiens with 4 samples.

Results

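The 8 genes described here encode the FOS and JUN family of AP-1 transcription factors: FOS, FOSB, FOSL1, FOSL2, JUN, JUNB, JUND and the related factor BATF3. They were chosen by name, each was read from the brightest feature of its symbol by the mean of the 4 arrays, and all 8 of 8 were found among 17687 gene symbols and 21448 features. Each symbol had 1 feature, so no choice between features arose. The feature of FOSB was annotated with 2 transcripts, that of JUND with 2 and that of FOSL1 with 6, so their isoforms were not separated.

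RNA came from HeyA8-MDR, a multidrug-resistant derivative of an ovarian carcinoma cell line, grown in RPMI medium that held 15% fetal bovine serum, gentamicin sulfate at 0.1% and paclitaxel at 300 ng/ml. The study compared 2 arrays of cells with a control microRNA inhibitor and 2 arrays of cells with an inhibitor of miR-204-5p, to ask which transcripts differ once this microRNA is lost. The drug and the medium were common to both groups. The group of an array was read from its title, because the treatment label names the miR-204-5p inhibitor for every array and only the design text names the control. The sources used here do not give the inhibitor's dose, the time of harvest or whether replicates were separate cultures, so each p-value reflects how far these particular arrays lie apart, and that spread may be technical. No measurement of miR-204-5p itself was used here.

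AP-1 is a dimer of basic leucine zipper proteins that binds a short palindromic DNA element. JUN proteins can pair with each other or with a FOS protein, whereas FOS proteins need a partner. MAP kinases raise the activity of JUN and the transcription of FOS after growth factors, cytokines or stress, and AP-1 in turn acts on genes of proliferation, matrix degradation and inflammation. In carcinoma lines FOSL1 is known as a long-lived member downstream of ERK signalling, while FOS and FOSB are best known for brief induction.

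The microRNA that the inhibitor was made to block is shown because its bases 2 to 8, the seed that pairs with targets and here in capitals, define what could be released. Mature hsa-miR-204-5p is encoded at chr9:70810031-70810052 on the minus strand of GRCh38.p14, and its sequence here is that of RefSeq.
hsa-miR-204-5p: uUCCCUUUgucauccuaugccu

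None of the 8 AP-1 genes passed an adjusted p of 0.05 in limma (Benjamini-Hochberg over all features), a threshold that 0.0513% of all features passed. The 2 genes with the lowest p moved in opposite directions: JUND was 1.47-fold higher and FOSB 1.52-fold lower with the inhibitor. In all, 2 genes had higher and 6 had lower mean values, where 40.48% of all features were higher. Their median log2 difference was -0.16 against -0.07 over all features. Of the 8 genes, 7 were above the median level of all features. The median log2 difference of those 7 was -0.11, against -0.165 over all features above that level. At an unadjusted p under 0.05, 1 of the 8 was higher, JUND, where 5.11% of features were, and 2 were lower, FOSB and JUN, where 12.8% of features were. The 2 groups did not overlap for 2 genes higher with the inhibitor, JUNB and JUND, against 16.5% of features, and for 4 genes lower with it, FOS, FOSB, FOSL1 and JUN, against 33.8% of features. After quantile normalization of the deposited values these were still 2 higher (22.7% of features), but 3 lower (23.9% of features), since the groups then overlapped for FOS.

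**Figure D1:**
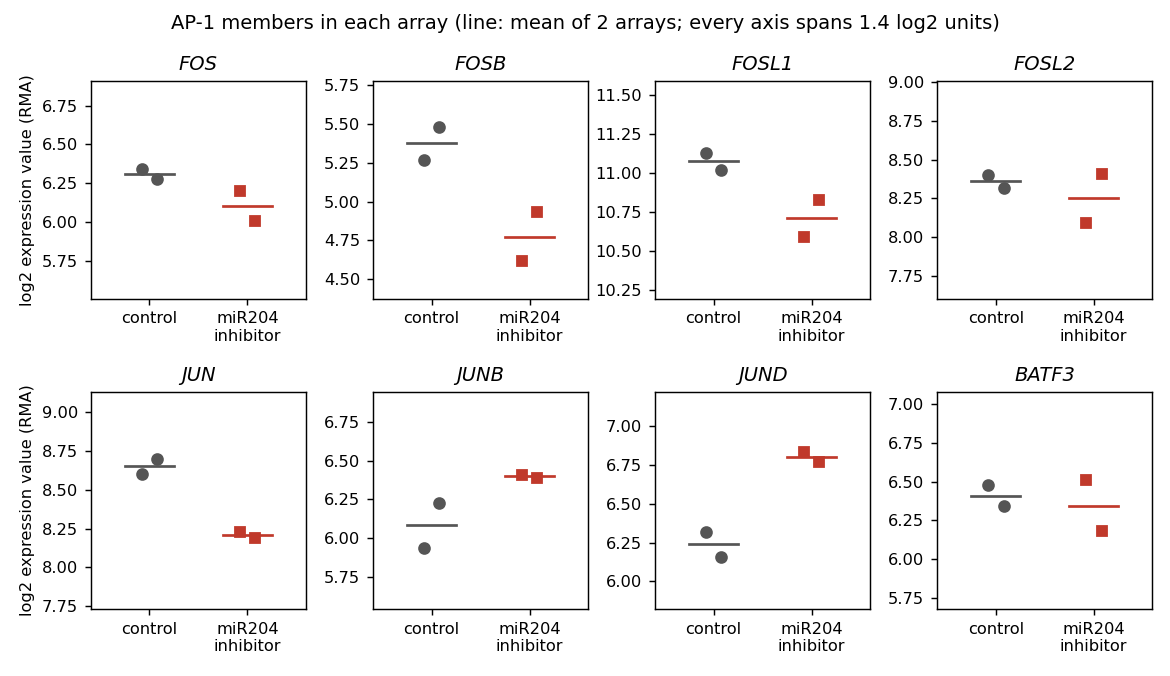
Log2 expression value of each AP-1 gene in each of the 4 arrays, control in grey and miR-204-5p inhibitor in red, with a line at the mean of 2 arrays. JUND and JUNB sit higher in both inhibitor arrays, JUN, FOSB, FOSL1 and FOS sit lower in both, and FOSL2 and BATF3 overlap.

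JUND encodes the JUN protein known for broad, steady expression and for restraining proliferation in some cell types. Its feature (TC1900010009.hg.1) had log2 values of 6.32 and 6.16 in control arrays and 6.83 and 6.77 in inhibitor arrays. Both inhibitor arrays were above both controls, by 0.45 to 0.67 log2 units in the 4 pairings of arrays. The means were 6.24 ± 0.113 and 6.80 ± 0.0424 (SD, n = 2 per group), a log2 difference of 0.56 (SE 0.146, 95% interval 0.212 to 0.908). The interval lay above 0, yet the adjusted p from limma was 0.171, with JUND at rank 856 of all features by p. JUND was the gene of the family that passed under the most settings: when limma's prior variance was let follow the mean level, here called the intensity trend (adjusted p = 0.0458), with that trend after quantile normalization (0.0414) and over features above the median level (0.0364). Among the settings that kept all 4 arrays its log2 difference ran from 0.56 to 0.69 and its adjusted p from 0.0364 to 0.354.

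JUNB encodes an early-response JUN protein that often opposes JUN itself. Its feature (TC1900007096.hg.1) gave 5.94 and 6.23 in control arrays and 6.41 and 6.39 in inhibitor arrays. The inhibitor arrays were close together and above both controls, but the controls were 0.29 log2 units apart, almost as far as the groups. The log2 difference was 0.315 (SE 0.159, 95% interval -0.0644 to 0.694) with an adjusted p of 0.349. It was 0.415 after quantile normalization, with an unadjusted p of 0.0299 and an adjusted p of 0.324.

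JUN encodes the founding JUN protein and main substrate of the JNK kinases. Its feature (TC0100014349.hg.1) had values of 8.60 and 8.70 in control arrays and 8.23 and 8.19 in inhibitor arrays. The arrays of each group agreed within 0.10 log2 units and the inhibitor arrays were the lower ones, by 0.37 to 0.51. The log2 difference was -0.44 (SE 0.142, 95% interval -0.777 to -0.103), 1.36-fold lower, with an adjusted p of 0.209. This value depended on the scaling, since it was -0.235 after quantile normalization and -0.2319 after cyclic loess. With the intensity trend JUN passed at an adjusted p of 0.0299, but after quantile normalization it had an unadjusted p of 0.124.

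JUND and JUN thus differed in direction within the same arrays, and that contrast does not depend on a shift common to all features of an array. A shift that differs with level would remain in it, and JUN had a mean log2 value of 8.43 against 6.52 for JUND. The log2 value of JUND minus that of JUN was -2.28 and -2.54 in control arrays and -1.40 and -1.42 in inhibitor arrays, a change of 1 log2 unit or 2-fold. For JUNB minus JUN the values were -2.66 and -2.47, then -1.82 and -1.80, a change of 0.755. JUND minus JUNB overlapped between the groups, with 0.38 and -0.07 in control arrays and 0.42 and 0.38 in inhibitor arrays. Only changes of such values between arrays can be read, not which of the genes has more transcript. Of the 28 pairs of AP-1 genes, 21 did not overlap between the groups, so the lack of overlap was common. The pairs named here were picked after their values were seen, and an exact two-sided permutation test of 2 arrays against 2 cannot give a p below 0.333.

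FOSB encodes a FOS protein that also exists as a truncated, stable form, delta FOSB. Its feature (TC1900008326.hg.1) gave 5.27 and 5.48 in control arrays and 4.62 and 4.93 in inhibitor arrays. Both inhibitor arrays were lower, although they were 0.31 log2 units apart. The log2 difference was -0.60 (SE 0.172, 95% interval -1.01 to -0.191) with an adjusted p of 0.186. It was the lowest difference of the family and changed little with scaling, at -0.57 after quantile normalization. FOSB passed the threshold in none of the settings tried, its adjusted p being 0.11 with the intensity trend and 0.438 with an ordinary test. Its mean level was under the median of all features (5.635), so the fit over features above the median did not include it.

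FOSL1, which encodes FRA-1, had values of 11.13 and 11.02 in control arrays and 10.59 and 10.83 in inhibitor arrays (TC1100011259.hg.1). The inhibitor arrays were both lower but spread over 0.24 log2 units. The log2 difference was -0.365 (SE 0.156, 95% interval -0.736 to 0.00613) with an adjusted p of 0.286. Under the intensity trend FOSL1 was called lower (adjusted p = 0.0354). After quantile normalization the difference was -0.18 with an unadjusted p of 0.231, and it was -0.1528 after cyclic loess.

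FOS, the founding member and a classic early-response gene, gave 6.34 and 6.28 in control arrays and 6.20 and 6.01 in inhibitor arrays (TC1400007706.hg.1). The inhibitor arrays were lower, one of them by only 0.08 log2 units from the nearer control. The log2 difference of -0.205 (SE 0.149, 95% interval -0.559 to 0.149) had an adjusted p of 0.501. As a ratio of inhibitor to control the interval runs from 0.679 to 1.11. FOS therefore cannot be said to be the same in both groups.

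FOSL2, which encodes FRA-2, had values of 8.40 and 8.32 in control arrays and 8.09 and 8.41 in inhibitor arrays (TC0200007096.hg.1), and the groups overlapped. BATF3, a small partner of JUN proteins best known from dendritic cells, had 6.48 and 6.34, then 6.51 and 6.18 (TC0100017258.hg.1), and also overlapped. The log2 difference of FOSL2 was -0.11 (SE 0.165, 95% interval -0.503 to 0.283, adjusted p = 0.754), and its sign turned to 0.0775 after quantile normalization and 0.096 after cyclic loess. The log2 difference of BATF3 was -0.065 (SE 0.169, 95% interval -0.468 to 0.338, adjusted p = 0.868), and its sign turned to 0.045 and 0.0538 with the same settings.

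**Figure D2:**
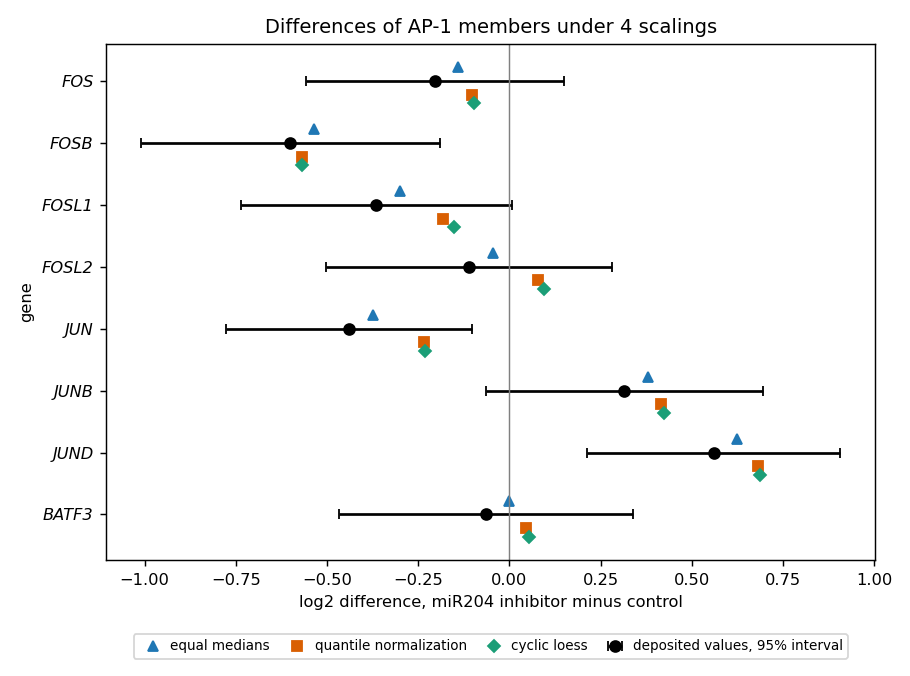
Log2 difference (miR-204-5p inhibitor minus control) of each AP-1 gene on the deposited values with its 95% interval from limma (black), and after 3 other scalings of the arrays (coloured). JUND stays near 0.56 to 0.69 and FOSB near -0.60 to -0.54, whereas JUN and FOSL1 move toward 0 and FOSL2 and BATF3 cross it.

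The count of AP-1 genes past the threshold followed the settings. With the intensity trend it was 3, namely JUND higher (1.02% of all features were called higher) and FOSL1 and JUN lower (6.09% were called lower). It was 1, JUND, over features above the median level (1.34% called higher) and with the trend after quantile normalization (1.42% called higher). Bright features had lower values in the inhibitor arrays: the median log2 difference was -0.165 over features above the median level against -0.07 over all features. JUN and FOSL1, the pair called lower with the trend, were among those brighter features. The part of this shift in their lower values was not tested.

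**Figure D3:**
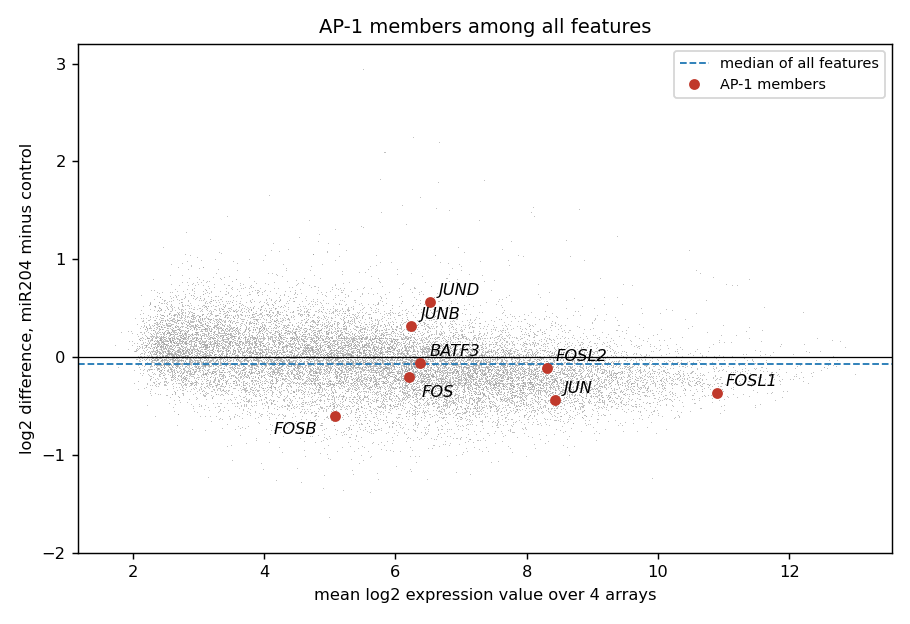
Log2 difference (inhibitor minus control) against mean log2 expression value for all features (grey) with the AP-1 genes in red and the median of all features, -0.07, as a dashed line. FOSL1 and JUN lie where grey points as a whole sit below 0, and JUND and FOSB lie toward the upper and lower side of the cloud at their levels.

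The start regions of JUND, JUN and FOSB, the 3 genes with an unadjusted p under 0.05, are shown so that the sites at which AP-1 and CREB-type factors can act on AP-1 genes themselves can be read. Each runs from 250 bases before to 50 bases after the RefSeq start in GRCh38.p14, and such a region was found for 6 of the 8 genes. Capitals mark the letters of the AP-1 element TGANTCA, the CRE TGACGTCA, the JUN-type element TGACATCA and the CRE core TGACG, searched on both strands. The CRE contains the core on each strand, so these matches overlap.
JUND, chr19:18281573-18281872, minus strand: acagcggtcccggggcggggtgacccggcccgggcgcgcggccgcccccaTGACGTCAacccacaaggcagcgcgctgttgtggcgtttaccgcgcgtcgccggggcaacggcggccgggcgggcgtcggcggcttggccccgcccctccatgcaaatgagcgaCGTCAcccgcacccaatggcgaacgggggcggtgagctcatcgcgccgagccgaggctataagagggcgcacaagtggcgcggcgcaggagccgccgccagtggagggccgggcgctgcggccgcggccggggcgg
JUN, chr1:58783998-58784297, minus strand: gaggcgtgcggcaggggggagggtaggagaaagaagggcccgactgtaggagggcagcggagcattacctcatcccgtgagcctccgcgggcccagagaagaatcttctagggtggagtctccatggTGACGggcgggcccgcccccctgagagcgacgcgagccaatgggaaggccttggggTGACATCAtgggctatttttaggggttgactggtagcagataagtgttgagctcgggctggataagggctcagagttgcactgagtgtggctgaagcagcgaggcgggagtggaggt
FOSB, chr19:45467746-45468045, plus strand: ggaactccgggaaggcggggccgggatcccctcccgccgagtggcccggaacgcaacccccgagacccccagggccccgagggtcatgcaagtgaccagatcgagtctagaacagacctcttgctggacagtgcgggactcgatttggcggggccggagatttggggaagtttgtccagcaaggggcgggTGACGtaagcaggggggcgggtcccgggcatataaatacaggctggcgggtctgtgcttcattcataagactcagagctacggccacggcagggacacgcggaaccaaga

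The windows of these genes held different elements. JUND had the CRE TGACGTCA, starting 200 bases before the start site, which 1.85% of 35116 such windows held, and a separate core 86 bases before it. JUN had TGACATCA starting 67 bases before the start site, held by 2.61% of windows, and a core at 123 bases. FOSB had 1 core, at 60 bases, and the TATA element TATAAA at 30 bases. The core TGACG was in all 6 windows found, those of FOS, FOSB, FOSL2, JUN, JUNB and JUND, against 24.6% of all windows. TGANTCA, held by 7.71% of windows, was found among them only in FOSL2, beginning at base 5 after the start. A match describes letters and is no evidence of binding in these cells.

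The genes with the profile closest to each of JUND and FOSB over the 4 arrays were found by the Euclidean distance of values less their own mean. For JUND they were DEFB134 (distance 0.026 log2 units), UNC13D (0.0384) and OR6C74 (0.0409). For FOSB they were CD1B and TM9SF3 (0.0218 each) and ERLIN1 (0.0316). Some of these were dim: all values of DEFB134 and OR6C74 were below 3.965, the level under which the dimmest 25% of features fall. CD1B was near that level, with 3.85 and 4.07 in control arrays and 3.21 and 3.54 in inhibitor arrays. Within a distance of 0.3 log2 units there were 599 genes for JUND and 1542 for FOSB, so with 4 arrays neither profile was distinctive.

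Genes that pair with AP-1 proteins or act before and after them were counted from lists chosen with earlier results of these data known. Of 9 measured partner genes of the basic leucine zipper class, 0 passed the threshold, 3 were higher and 6 lower, with a median log2 difference of -0.12. ATF3, a stress-induced factor that binds JUN proteins, had the largest value, with 4.92 and 5.18 in control arrays and 6.39 and 6.65 in inhibitor arrays. Its log2 difference was 1.47 (SE 0.171, adjusted p = 0.08). ATF3 was called higher under the intensity trend (adjusted p = 0.00119, or 0.0017 after quantile normalization) and over features above the 25th percentile (0.0376) or the median (0.00489), and under no other setting. The stress factor ATF4 differed by -0.34 (SE 0.145, adjusted p = 0.285). It was the 1 partner called lower under the intensity trend (0.0499), where 6.09% of all features were called lower. The remaining named partners were the MAF proteins MAF (-0.24, SE 0.149, 0.434) and MAFF (0.23, SE 0.143, 0.435).

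Among 21 measured kinases and transcription factors that act before FOS and JUN, 0 passed, 5 were higher, 15 were lower and 1 had a difference of 0. Lower values were common, since 12764 of all 21448 features were lower. The list's median log2 difference of -0.275 became -0.159 after quantile normalization. ELK3, a ternary complex factor at serum response elements, had 9.78 and 9.83, then 9.24 and 9.29, a log2 difference of -0.54 (SE 0.14, adjusted p = 0.171). It was the 1 gene of this list called under the intensity trend (adjusted p = 0.00627), where 6.09% of all features were called lower. ELK3 was also called lower over features above the median (0.0359), where 867 of 10739 features were called lower. The kinase RPS6KA1 differed by -0.535 (SE 0.16, adjusted p = 0.193, and 0.0484 over features above the median), the SRF coactivator MRTFB by -0.535 (SE 0.179, 0.217) and MAPK3, which encodes ERK1, by -0.42 (SE 0.15, 0.231). MAPK8, which encodes JNK1, overlapped between the groups, with 7.62 and 7.64 in control arrays and 7.02 and 7.69 in inhibitor arrays.

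Of 9 measured genes for proteins that degrade, restrain or coactivate AP-1, 0 passed and the median log2 difference was -0.005. The MAP kinase phosphatases DUSP1 (0.40, SE 0.151, adjusted p = 0.245) and DUSP10 (0.295, SE 0.144, 0.337) had higher values in both inhibitor arrays, and DUSP1 was called higher with the trend after quantile normalization (0.0146). DET1, a partner of the JUN ubiquitin ligase COP1, differed by -0.48 (SE 0.177, adjusted p = 0.238), and COPS5, a JUN coactivator, by -0.21 (SE 0.155, 0.508).

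Of 32 measured genes reported as AP-1 targets, 2 rose past the threshold while 0 fell. Over all features 0.0513% passed, 11 of them higher and 0 lower, so the lack of falls was not particular to these targets. Of the 32 targets, 15 were higher and 17 lower, with a median log2 difference of -0.015. The groups did not overlap for 10 higher (16.5% of all features) and 13 lower (33.8%). This balance depended on the scaling: after quantile normalization the groups did not overlap for 15 higher (22.7% of all features) and 4 lower (23.9%), with a median of 0.0725. IL6, a cytokine gene, rose with 4.24 and 3.83 in control arrays and 6.87 and 7.06 in inhibitor arrays, a log2 difference of 2.93 (SE 0.185, adjusted p = 0.0282). Its second control value was below 3.965, the mean level under which the dimmest 25% of features fall, so the size of this fold is uncertain. CXCL8, a chemokine gene, rose with 8.06 and 8.03, then 9.50 and 9.60, a log2 difference of 1.505 (SE 0.141, adjusted p = 0.0409). The collagenase MMP1 (4.70 and 4.71, then 5.78 and 5.79; adjusted p = 0.101) and heme oxygenase HMOX1 (6.49 and 6.52, then 7.58 and 7.56; adjusted p = 0.101) had higher values in both inhibitor arrays without passing. Prostaglandin synthase PTGS2, from a dim feature, differed by 0.635 (SE 0.192, adjusted p = 0.196). The gap junction gene GJA1 had the lowest difference of the list, with 8.40 and 8.46, then 7.70 and 7.77, a log2 difference of -0.695 (SE 0.141, adjusted p = 0.144). With the intensity trend 4 of the 32 targets were called higher, namely IL6, CXCL8, MMP1 and HMOX1, where 1.02% of all features were. The 2 called lower, GJA1 and the cyclin gene CCND1, are a share near the 6.09% of all features called lower.

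Other immediate early genes, which share their rapid induction with FOS and JUN, gave 1 call among 29 measured, against 0.0513% of all features. EGR1, a zinc finger factor, rose with 5.74 and 5.41 in control arrays and 7.61 and 7.92 in inhibitor arrays, a log2 difference of 2.19 (SE 0.185, adjusted p = 0.0388). FOS and FOSB, often induced together with EGR1, had lower values in the same arrays. In all, 18 of the 29 were higher and 11 lower, with a median log2 difference of 0.11. NFKBIZ (0.495, SE 0.144, adjusted p = 0.19), the phosphatase genes DUSP5 (0.52, SE 0.152, 0.19) and DUSP4 (0.525, SE 0.174, 0.216) and the mRNA decay factor ZFP36 (0.34, SE 0.141, 0.276) had higher values without passing. NFKBIZ and DUSP5 were called higher with the intensity trend (adjusted p = 0.0179 and 0.0208), with that trend after quantile normalization (0.005 and 0.00851) and over features above the median (0.0458 and 0.0465), and DUSP4 with the trend after quantile normalization (0.0344). In all, 4 of the 29 were called higher (1.02% of all features) and 1 lower (6.09%) with the intensity trend. The groups did not overlap for 10 higher (16.5% of all features) and 8 lower (33.8%). After quantile normalization they did not overlap for 16 higher (22.7% of all features) and 3 lower (23.9%).

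**Figure D4:**
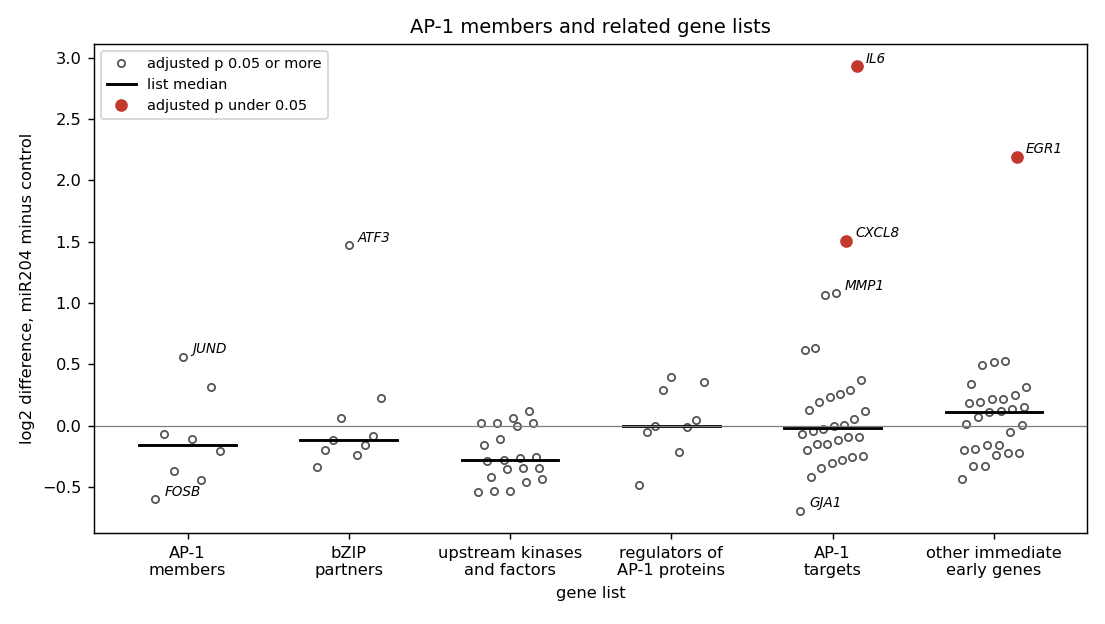
Log2 difference (inhibitor minus control) of each AP-1 gene and of each measured gene of 5 related lists, with the list median as a line and genes past an adjusted p of 0.05 in limma filled red. IL6, CXCL8 and EGR1 are the 3 filled points, and the AP-1 genes lie between -0.60 and 0.56.

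The calls of IL6, CXCL8 and EGR1 ended after quantile normalization (adjusted p = 0.058 for each), with the replicate block (0.322 for each), with the ordinary test (0.316, 0.311 and 0.337) and in every fit without 1 array: at 0.713 without control array 1, 0.834 without control array 2, 0.243 without inhibitor array 1 and 0.139 without inhibitor array 2. In the fits without 1 array the other group alone gives the spread, with 1 residual degree of freedom, and 0 of 21448 features passed, so these losses say nothing of the 3 genes in particular. Their log2 differences stayed about as large there, at 2.725 to 3.135 for IL6, 1.455 to 1.555 for CXCL8 and 2.025 to 2.355 for EGR1. The 3 calls were kept with the intensity trend, the robust prior, equal medians, cyclic loess and features above the 25th percentile. With the trend after quantile normalization the adjusted p from limma was 2.54e-05 for IL6, 7.83e-06 for CXCL8 and 3.27e-05 for EGR1.

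The labelled cell type was checked with marker genes. ABCB1, the efflux pump gene typical of multidrug resistance, had values of 7.55 to 7.77, and keratin genes KRT8 and KRT18 (10.74 to 11.45) and PAX8 (8.31 to 8.51) were above the median feature (5.635). The epithelial marker KRT19 (mean 5.365) and the ovarian marker MUC16 (4.5775) were below it, and EPCAM was within the dimmest 25%. The ovarian markers PAX8, WT1 and MUC16 had a mean log2 value of 6.64 and 6.69 in control arrays against 6.26 and 6.34 in inhibitor arrays. For markers of other cells, 3 leukocyte markers averaged 4.17 and 4.17 against 4.50 and 4.32, 4 endothelial markers 5.29 and 5.23 against 5.16 and 5.10, and 4 fibroblast markers 4.30 and 4.11 against 4.02 and 4.16. The defining markers PTPRC of leukocytes, KDR of endothelium and LUM and PDGFRB of fibroblasts were within the dimmest 25% of features, whereas the leukocyte markers CD14 (mean 5.17) and CD3E (4.81) were not, and VWF of endothelium (6.4725) and COL1A1 of fibroblasts (6.07) were above the median feature. The endothelial cadherin CDH5 had 8.13 and 8.06, then 7.01 and 7.03 (log2 difference -1.075, SE 0.14, adjusted p = 0.101). None of these markers passed the threshold in the main fit, but CDH5 was called lower with the intensity trend (adjusted p = 0.000675). The part of the markers in the AP-1 values was not tested. In such bulk RNA, fewer cells with a transcript and less of it per cell cannot be told apart.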

How the data were processed

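RNA of 4 samples was measured on 1-colour Clariom S human arrays from Affymetrix. The deposited values are log2 expression values per feature that, per the submitters' processing notes, the authors made by RMA with the Transcriptome Analysis Console 4.0. RMA corrects background, normalizes between arrays and summarises probes. The sources used here give neither its parameters nor a genome build. Detection calls were not used here, so a dim feature cannot be told from an undetected one. Array medians ran from 5.59 to 5.68. The SD over features was 2.196 and 2.207 in control arrays against 2.077 and 2.132 in inhibitor arrays, so the deposited arrays were not equal in spread.

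By the platform's annotation 17709 features carried 1 gene symbol, 0 carried several and 3739 carried none. The 2 groups were tested by limma 3.58.1 (lmFit, eBayes; R 4.3.3) over all 21448 features, without filter or block, with 2 residual and 4.78 prior degrees of freedom and Benjamini-Hochberg adjustment. The procedure was tested on simulated data in which the variance of a feature did not depend on its level, so that test does not cover the intensity trend. Same-numbered arrays of the 2 groups did not deviate together (correlation 0.00579 over features), so numbers were not taken to pair arrays. The members, lists and settings were chosen with earlier results of these data known. Genes named from a list were those past the threshold and up to 4 others with the largest moderated statistic, plus ATF3, EGR1, IL6, CXCL8 and ABCB1. MAPK8, CCND1 and which markers to name were chosen after their values were seen. Other settings tried were an intensity trend, a robust prior, 3 scalings, filters on level, a replicate block, an ordinary test and leaving out each array. RefSeq sequences were searched for motifs as letters.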

Additional observations from a re-analysis of the deposited data

How the results depend on the processing

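FOS, FOSB, FOSL1, JUN, JUNB and JUND kept their direction in every setting in which they were tested. Most settings could not have turned it. The groups did not overlap for these genes, so leaving out 1 array cannot reverse a sign. The trend, robust prior, filters, block and ordinary test use the same log2 difference as the main fit. Only the scalings could have turned the direction of these genes, and they did not. Among the AP-1 genes the signs that turned were those of FOSL2 (0.0775 after quantile normalization with or without the trend, 0.096 after cyclic loess, and -0.27 to 0.05 with 1 array left out) and BATF3 (0.045, 0.0538, and -0.23 to 0.10 with 1 array left out, above 0 without control array 1 or inhibitor array 2). That of ABCB1 turned too (0.0644 and 0.0722), as did those of other list genes with small differences. The calls gained among the AP-1 genes were FOSL1 (-0.365), JUN (-0.44) and JUND (0.56) with the intensity trend, JUND (0.6812) with the trend after quantile normalization, and JUND (0.56) over features above the median, so that 3, 1 and 1 AP-1 genes passed. The count of features past the threshold, 11 on the deposited values, was 1525 with the trend, 559 with the trend after quantile normalization, 1011 above the median, 38 above the 25th percentile, 4 with the ordinary test, and 0 after quantile normalization, with the replicate block and in each fit with 1 array left out. The replicate block changed no call of an AP-1 gene, but none passed without it and 0 features passed with it. The lack of change therefore says nothing of these genes in particular. The median log2 difference of the AP-1 genes was -0.0281 after quantile normalization (with or without trend), -0.0925 with equal medians, -0.0218 after cyclic loess, -0.11 above the median (7 genes), and -0.2375 to -0.1225 with 1 array left out. The cause of these changes was not tested. Fits without an array or with the block have fewer residual degrees of freedom (1 against 2). A filter leaves fewer features to adjust over and also changes the prior, with 6.161 prior degrees of freedom above the median against 4.78 over all features. No symbol of the family had a further feature to try. The 2 arrays per group limit every interval.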
